A study of Mus musculus with 6 samples.

Results

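Sterol synthesis genes were examined in RNA from the brains of Top2b-low and wild-type mice. The group held 7 genes, Hmgcs1, Sqle, Insig1, Idi1, Fdft1, Dhcr7 and Srebf2. They were chosen by gene symbol, as enzymes and regulators of one pathway, from the 78298 Ensembl gene identifiers in the deposited table, and all 7 passed the filter that left 17391 genes for testing. The study sequenced polyadenylated RNA from the left brain of untreated male mice, with 3 Top2b-low and 3 wild-type libraries. Top2b-low mice were homozygous for a CRISPR/Cas9-made Top2b allele with an AID (auxin-inducible degron) sequence fused to the 5′ end of the coding region, and the others are labelled wild type. The product of Top2b, topoisomerase IIβ, relieves DNA tangles and is the main such enzyme of neurons. The labels state that no drug was given and name no Cre or other driver, and they give the age as 10 weeks in one place and 3.5 months in another. Whether the Top2b-low mice descend from 1 founder or several is not given in the sources used here. The library name of Top2b-low replicate 3 ends in dNdN, where those of the other Top2b-low libraries end in Homo, and the labels do not explain the difference. Its genotype label is the same as theirs.

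Cholesterol is made from acetyl-CoA through mevalonate, isoprenoid units, squalene and lanosterol. When membrane cholesterol is low, the transcription factor SREBP2 is carried from the endoplasmic reticulum by its escort SCAP, cleaved in the Golgi and moved to the nucleus, where it switches on the enzymes of the pathway and of sterol uptake. INSIG proteins hold SCAP back when sterols are plentiful. The blood-brain barrier keeps plasma lipoproteins out, so the brain makes its own cholesterol, in oligodendrocytes for myelin and in astrocytes and neurons for membranes.

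Libraries held 16963067 to 35246703 reads, the whole-number counts recovered from the deposited values. Values are given as normalised counts, reads divided by the library's size factor. The check of the targeted gene went with the labels. Top2b had 2152, 2314 and 1965 normalised counts in Top2b-low replicates 1 to 3, against 3160, 3014 and 2485 in wild-type replicates 1 to 3, so the groups did not overlap (log2 difference −0.42, SE 0.11, limma adjusted p = 0.99997). With the N22 name described next as a term, limma gave Top2b an SE of 0.06 and an adjusted p of 0.224. The log2 difference was −0.47 in the 4 libraries not named N22 and −0.34 in the N22 pair. Replicate 3 of each genotype has a library name that begins with N22, and the labels do not say what N22 stands for. These N22 libraries stood apart from the other 4. Limma, with genotype in the model, called all 20 cerebellar markers lower in them (adjusted p under 0.05, median log2 difference −2.35). Over all genes it called 16.7% lower and 11.3% higher. Summed levels of the 20 were 25116 to 28363 normalised counts in the N22 libraries and 70439 to 82842 in the others. Gabra6, the GABA receptor subunit of cerebellar granule cells, was at 0.592 and 0.711 in the N22 libraries, which is at the level of a single read. Because each genotype has 1 N22 library, the genotype differences of the members are given over all 6 libraries and also by N22 name.

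The promoter of Hmgcs1 is shown because it held the only match to the SREBP element among the 5 members with a promoter window. Those of Idi1 and Insig1 are shown as the members with the largest differences between N22 and other libraries. RefSeq windows (GRCm38.p6, from 250 bases before the annotated start to 50 after it, 5′ to 3′ on the gene's strand) were given for 5 of the 7 members, with 7 windows in all. Sqle and Fdft1 had no window and were not searched. All 3 windows lie on the plus strand, Hmgcs1 at chr13:119690101-119690400, Idi1 at chr13:8885356-8885655 and Insig1 at chr5:28071162-28071461. Each covers the promoter and the first transcribed bases of its gene. Capitals mark the SREBP element TCACNCCAC and the NF-Y box CCAAT, which reads ATTGG where it lies on the other strand.
Hmgcs1: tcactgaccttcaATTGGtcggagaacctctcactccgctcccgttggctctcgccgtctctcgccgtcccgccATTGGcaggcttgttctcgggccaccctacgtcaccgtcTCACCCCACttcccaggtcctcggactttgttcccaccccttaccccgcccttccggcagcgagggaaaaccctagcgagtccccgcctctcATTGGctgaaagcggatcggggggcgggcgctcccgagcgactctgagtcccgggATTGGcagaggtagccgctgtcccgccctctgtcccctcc
Idi1: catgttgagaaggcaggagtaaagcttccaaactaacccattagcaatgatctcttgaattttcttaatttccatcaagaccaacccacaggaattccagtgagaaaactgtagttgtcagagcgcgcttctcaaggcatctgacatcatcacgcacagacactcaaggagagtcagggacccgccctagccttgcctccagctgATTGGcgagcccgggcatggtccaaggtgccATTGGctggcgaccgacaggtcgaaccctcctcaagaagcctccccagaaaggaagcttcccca
Insig1: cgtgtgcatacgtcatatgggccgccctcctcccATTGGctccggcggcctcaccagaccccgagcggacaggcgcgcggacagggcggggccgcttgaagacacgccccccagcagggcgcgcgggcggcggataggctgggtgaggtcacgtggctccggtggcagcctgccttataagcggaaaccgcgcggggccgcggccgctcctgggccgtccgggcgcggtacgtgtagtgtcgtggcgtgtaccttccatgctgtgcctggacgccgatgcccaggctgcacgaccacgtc

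Both strands were searched, and no marked match overlapped another. The SREBP element was found in 408 of the 32851 promoter windows of the genome table (1.24%), and its match in Hmgcs1 was TCACCCCAC, beginning 137 bases before the start. The NF-Y box, bound by the trimeric factor NF-Y, was in 37.4% of all windows. Hmgcs1 held 4 matches to it, Idi1 2 and Insig1 and Srebf2 1 each. Of the 3 windows of Dhcr7, 1 held 2 matches and the others held 0. The Sp1 box GGGCGG was in 35.7% of all windows and in 6 of the 7 windows of the members. These matches describe letters in a window and not binding.

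Per kilobase of the longest annotated coding transcript, Hmgcs1 was the most abundant member, at 1744 ± 142 normalised counts per kilobase (SD over the 6 libraries). Srebf2 followed with 925 ± 40.2 and Insig1 with 742 ± 117 normalised counts per kilobase. Over the libraries Insig1 (583 to 903) overlapped both Srebf2 (883 to 983) and Idi1 (395 to 659). Idi1 (523 ± 99.1), Sqle (501 ± 32.8) and Fdft1 (460 ± 30.2) had overlapping levels per kilobase and no order among them held beyond their spread. Dhcr7 was lowest, at 223 ± 23.0 normalised counts per kilobase. Lengths came from GENCODE vM21 on GRCm38 and the table was made on mm39, so these levels are approximate.

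No member passed the test between Top2b-low and wild-type brains. The 7 log2 differences ran from −0.09 (Dhcr7) to 0.05 (Srebf2), with 4 above 0 and 3 below, a median of 0.01, and the groups overlapped for every member. Over all genes tested the median was −0.0021. In limma's test, adjusted over all genes, 0 of 7 members passed at 0.05 (adjusted p = 0.99997 for each), 0 had an unadjusted p under 0.05, and edgeR and DESeq2, run on recovered reads, called 0 as well. The background was 0.0% of genes called by each of these tools, with 262 genes at an unadjusted p under 0.05 in limma, 250 in edgeR and 166 in DESeq2. Groups that did not overlap were found for 5.74% of genes, 2.7% higher and 3.04% lower in Top2b-low brains. The two-sided exact permutation test gave p from 0.4 to 1.0 over the members, where 3 against 3 cannot go below 0.1.

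Hmgcs1, the cytosolic synthase that makes HMG-CoA, had 6850, 5961 and 5500 normalised counts in Top2b-low replicates 1 to 3, against 6338, 5946 and 5654 in wild-type replicates 1 to 3. In both genotypes replicate 1 was highest and the N22 library lowest. The means were 6104 ± 687 in Top2b-low and 5979 ± 343 in wild-type brains (SD, n = 3 each), and the log2 difference was 0.03 (SE 0.10). Its 95% interval allows a level from 13.1% lower to 19.2% higher in Top2b-low brains (limma, back-transformed, −13.1% to 19.2%).

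Idi1, the isomerase that interconverts the 5-carbon isoprenoid units, had 1995, 1556 and 1194 normalised counts in Top2b-low replicates 1 to 3, against 1766, 1692 and 1294 in wild-type replicates 1 to 3. The N22 library was lowest in each genotype, and Top2b-low replicate 1 was the highest of the 6. The log2 difference was −0.02 (SE 0.20), the widest error of the members, with an interval from −28.6% to 36.3%. Its paralogue Idi2 lies on the same chromosome and had at most 3.64 normalised counts in any library.

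Fdft1, the squalene synthase that commits the pathway to sterols, had 1741, 1638 and 1745 normalised counts in Top2b-low replicates 1 to 3, against 1634, 1569 and 1882 in wild-type replicates 1 to 3. Here the N22 library was the highest of each genotype. The log2 difference was 0.01 (SE 0.09, interval −12.9% to 17.1%). Fdft1 overlaps Ctsb, which encodes the protease cathepsin B, on the opposite strand. Ctsb stood at 11298 to 12100 normalised counts, and since it is not given whether counting used strand, reads in the overlap cannot be assigned here.

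Sqle, the squalene epoxidase that follows Fdft1 in the pathway, had 1461, 1390 and 1252 normalised counts in Top2b-low replicates 1 to 3, against 1411, 1293 and 1477 in wild-type replicates 1 to 3. The lowest and the highest of the 6 values were the N22 libraries of the Top2b-low and the wild-type mice. The log2 difference was −0.03 (SE 0.09, interval −15.7% to 14.0%).

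Dhcr7, the reductase that makes cholesterol from 7-dehydrocholesterol, had 649.7, 674 and 507 normalised counts in Top2b-low replicates 1 to 3, against 672, 663 and 602 in wild-type replicates 1 to 3. The 4 libraries not named N22 lay within 649.7 to 674, and both N22 libraries lay below them. The log2 difference was −0.09 (SE 0.13, interval −23.6% to 15.4%). Dhcr7 had the fewest reads of the members, 528 to 857 per library, for a counting error of at most 4.35%. For the other 6 it was at most 3.11%.

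Of the regulators, Srebf2, which encodes SREBP2, had 4859, 4988 and 4486 normalised counts in Top2b-low replicates 1 to 3, against 4483, 4626 and 4733 in wild-type replicates 1 to 3. It varied least of the members, with a log2 difference of 0.05 (SE 0.07) and an interval from −7.93% to 16.3%. Insig1, which encodes an endoplasmic reticulum protein that retains SCAP and is itself a target of SREBP, had 2435, 2118 and 1572 against 2224, 1872 and 1781 normalised counts in replicates 1 to 3 of Top2b-low and wild-type mice. Top2b-low replicate 1 was highest and the Top2b-low N22 library lowest, with a log2 difference of 0.04 (SE 0.17, interval −21.5% to 35.2%). Transcript levels of Srebf2 do not measure cleavage of its protein.

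**Figure D1:**
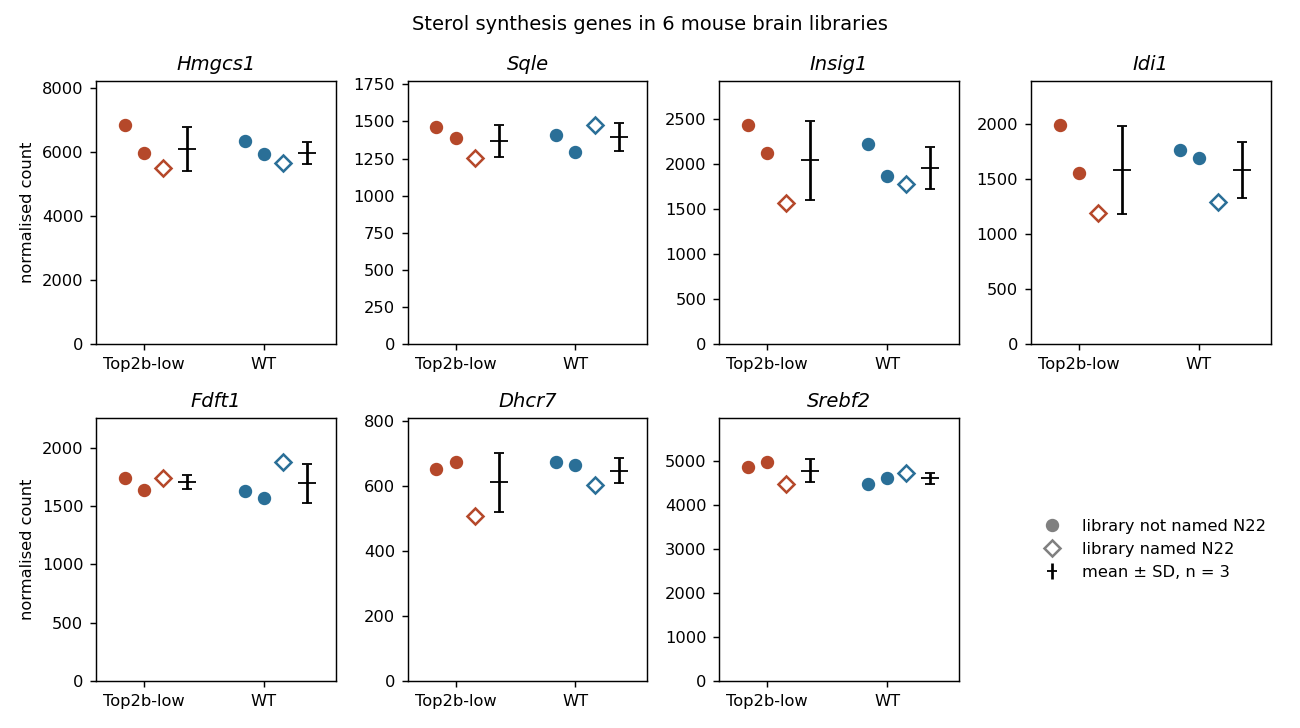
Normalised count of each member in the 6 libraries, Top2b-low left and WT right, with open diamonds for the N22 libraries and bars for the mean ± SD of 3 libraries. The genotypes overlap in each panel, and both diamonds lie below all filled points for Hmgcs1, Insig1, Idi1 and Dhcr7 and above them for Fdft1.

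The sign of the genotype difference varied with the library set. In replicates 1 and 2, 6 of 7 members were higher in the Top2b-low library than in the wild-type library of the same number, a pairing that the labels do not state, with Dhcr7 lower in replicate 1 and Idi1 lower in replicate 2. In replicate 3, the N22 pair, all 7 were lower in the Top2b-low library. The median log2 differences over the members were 0.11, 0.06 and −0.11 in replicates 1 to 3, against −0.0032, −0.0070 and 0.0081 over all genes. Of all genes, 49.1%, 48.6% and 51.8% were higher in the Top2b-low library of replicates 1 to 3. The pattern of higher in both other pairs and lower in the N22 pair was shown by 5 members, Hmgcs1, Sqle, Insig1, Fdft1 and Srebf2, and by 11.6% of all genes. The counts of 6 of 7 and of 5 members depend on pairing by number. Set against wild-type replicate 1 instead, Top2b-low replicate 2 was lower for Hmgcs1, Sqle, Insig1 and Idi1. It was higher for Fdft1, Dhcr7 and Srebf2.

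In the N22 pair, Dhcr7 was 15.8% lower in the Top2b-low library (−15.8%), Sqle −15.2%, Insig1 −11.7%, Idi1 −7.67%, Fdft1 −7.32%, Srebf2 −5.22% and Hmgcs1 −2.73%. Each value there compares 1 library with 1 library and has no replicate. In the 4 libraries not named N22 the log2 differences were 0.15 for Insig1, 0.11 for Srebf2, 0.08 for Sqle and for Fdft1, 0.06 for Hmgcs1, 0.03 for Idi1 and −0.01 for Dhcr7. No member passed limma's test among those 4 (lowest adjusted p = 0.947, 0 at an unadjusted p under 0.05).

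The difference between these differences was tested with an interaction term in limma. It was below 0 for all 7 members, from −0.33 (Insig1) to −0.10 (Hmgcs1), with a median of −0.19, where 48.4% of all genes were below 0 and the median of all genes was 0.01. It passed the test for 0 of 7 members (adjusted p = 0.997 for each), with 0.023% of all genes called, 0.00575% higher and 0.0173% lower. Only Sqle had an unadjusted p under 0.05 (−0.32, SE 0.14, unadjusted p = 0.0476). The members act in one pathway and are not 7 independent observations of this contrast. Adding the N22 name as a term cannot change limma's genotype differences, since each genotype has 1 N22 library of 3. With that term their SEs were between 0.06 and 0.09. Again 0 of 7 members were called by limma (adjusted p from 0.949 to 0.992), with 0.0% of all genes called, and 0 by edgeR or DESeq2 with that term, where DESeq2 called 0.0935% of genes and edgeR 0.0%.

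**Figure D2:**
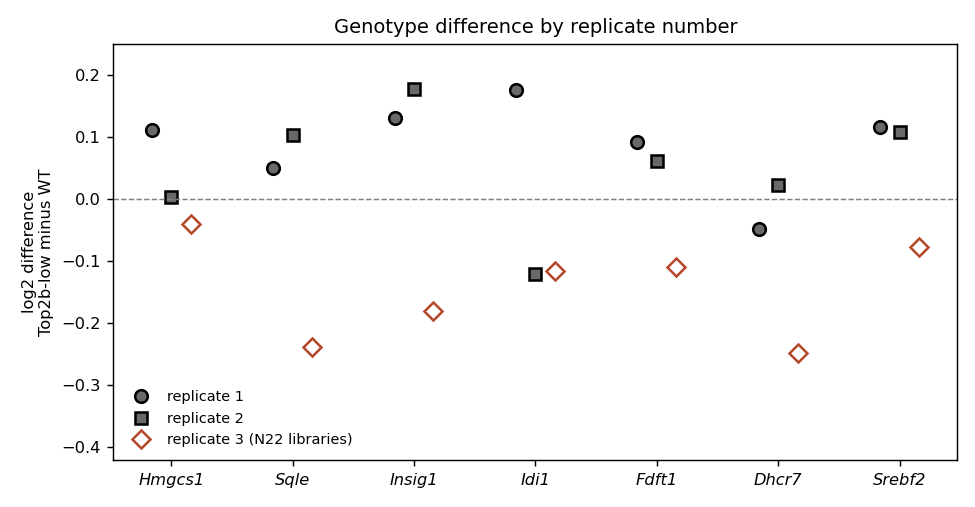
Log2 difference, Top2b-low minus WT, of each member for the libraries of replicates 1, 2 and 3, with open diamonds for replicate 3, the N22 pair. Each diamond lies below 0, from −0.25 for Dhcr7 to −0.04 for Hmgcs1, while 6 of 7 circles and 6 of 7 squares lie above it.

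Between library names, 3 members were lower in the N22 libraries than in the other 4. These were Idi1, Insig1 and Dhcr7, and 0 of 7 were higher. With genotype in the model, limma called 28.0% of all genes, 16.7% lower and 11.3% higher, so calls were common and 3 of 7 is to be read against that. In the same contrast edgeR called 29.5% and DESeq2 23.5% of all genes, with 3 and 2 members lower. With quantile normalization 50.6% of the calls over all genes were higher, against 40.4% without it, and Idi1 was the only member called. Depth moved with the name too, at 28629911 to 35246703 reads in the N22 libraries and 16963067 to 17413959 in the others, and its part in these differences was not tested. In bulk samples, fewer cells of a type and less RNA per cell cannot be told apart.

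Idi1 fell furthest, averaging 1244 ± 70.1 normalised counts in the N22 libraries (SD, n = 2) and 1752 ± 183 in the others (SD, n = 4). The log2 difference was −0.49 (SE 0.09, limma adjusted p = 0.00424), and it was −0.56 within Top2b-low and −0.42 within wild-type libraries. The N22 libraries of both genotypes thus lay below the others of their own genotype.

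Insig1 averaged 1676 ± 148 normalised counts in the N22 libraries and 2162 ± 234 in the others (SD, n = 2 and 4), with a log2 difference of −0.36 (SE 0.10, limma adjusted p = 0.0209). It was −0.53 within Top2b-low and −0.20 within wild-type libraries. Dhcr7 averaged 555 ± 67.4 in the N22 libraries and 665 ± 10.9 in the others (log2 difference −0.27, SE 0.08, limma adjusted p = 0.0331), with −0.38 within Top2b-low and −0.15 within wild-type libraries. For both genes the Top2b-low N22 library was the lowest of the 6. Without that library, Top2b-low replicate 3, limma's adjusted p was 0.351 for Insig1, 0.414 for Dhcr7 and 0.0884 for Idi1, and none of them was called. Insig1 also missed the threshold without wild-type replicate 1 (limma adjusted p = 0.0609). Dhcr7 missed it without any single library other than wild-type replicate 2, with 0.0508 the lowest of those 5 adjusted p-values in limma. Over all alternatives, the adjusted p ran from 2.44e-05 to 0.0884 for Idi1, from 0.00308 to 0.351 for Insig1 and from 0.0275 to 0.414 for Dhcr7.

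Hmgcs1 was lower in both N22 libraries than in each of the others but did not pass the test (−0.17, SE 0.07, limma adjusted p = 0.0977). Fdft1 was higher in both than in each of the others and did not pass either (0.14, SE 0.07, adjusted p = 0.148). It was 0.05 within Top2b-low and 0.23 within wild-type libraries, which are also its values without wild-type replicate 3 and without Top2b-low replicate 3. Sqle (−0.03, adjusted p = 0.824) and Srebf2 (−0.04, adjusted p = 0.672) overlapped between the library sets. N22 and other libraries did not overlap for 5 of 7 members, 4 lower and 1 higher, where this held for 49.3% of all genes, 26.5% lower and 22.8% higher. For Sqle the direction differed between genotypes, with −0.19 within Top2b-low and 0.13 within wild-type libraries.

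Ratios of members within a library do not depend on its scaling. Idi1 over Fdft1 was 0.685 and 0.687 in the N22 libraries of Top2b-low and wild-type mice, against 1.15 and 0.950 in the other Top2b-low libraries and 1.08 and 1.08 in the other wild-type libraries. Insig1 over Fdft1 was 0.901 and 0.946 in those N22 libraries, with an average of 0.923 against 1.31 in the others. These pairs were chosen after the values were seen. Fdft1 was the 1 member above 0 by N22 name, so a gap in ratios over it follows from that choice. Averages in the N22 and the other libraries were 0.751 and 0.844 for Sqle over Fdft1 and 0.363 and 0.457 for Insig1 over Srebf2. Ratios over Fdft1 use its raw counts with the overlap described above.

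**Figure D3:**
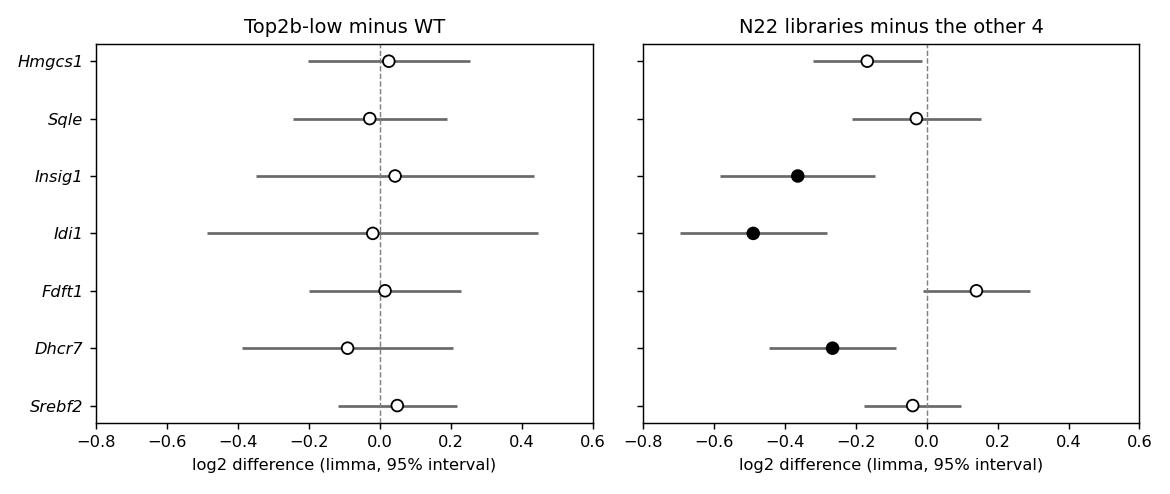
Log2 difference with its 95% interval from limma for each member, Top2b-low minus WT at left and N22 minus the other 4 libraries at right, with filled points for an adjusted p under 0.05. All intervals at left include 0, and Insig1, Idi1 and Dhcr7 are filled at right.

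Other enzymes of the pathway were called in both directions by N22 name, and none by genotype. Of 21 sterol synthesis enzymes, which include 5 of the members, limma called 8 lower and 2 higher in the N22 libraries, and 11 did not pass. The 16 enzymes outside the members held 6 of those called lower and the 2 called higher. Over all genes 16.7% were called lower and 11.3% higher. Without Top2b-low replicate 3 the 10 calls became 2, and without wild-type replicate 3 they became 3. The median log2 difference of the 21 enzymes was −0.17, where that of all genes was −0.0046. The enzymes with the smallest p were Cyp51, the lanosterol demethylase (−0.43, SE 0.07, adjusted p = 0.00157), Idi1, the sterol desaturase Sc5d (−0.32, adjusted p = 0.00414) and the 3-keto reductase Hsd17b7 (−0.45, adjusted p = 0.00371). The 2 that were higher, named after their values were seen, were the mevalonate-pathway kinase Pmvk (0.43, adjusted p = 0.00694) and the sterol reductase Tm7sf2 (0.35, adjusted p = 0.0321). Between genotypes 0 of 21 enzymes were called by limma, edgeR or DESeq2, 0 had an unadjusted p under 0.05, and the median was −0.02 with 7 above 0 and 14 below.

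**Figure D4:**
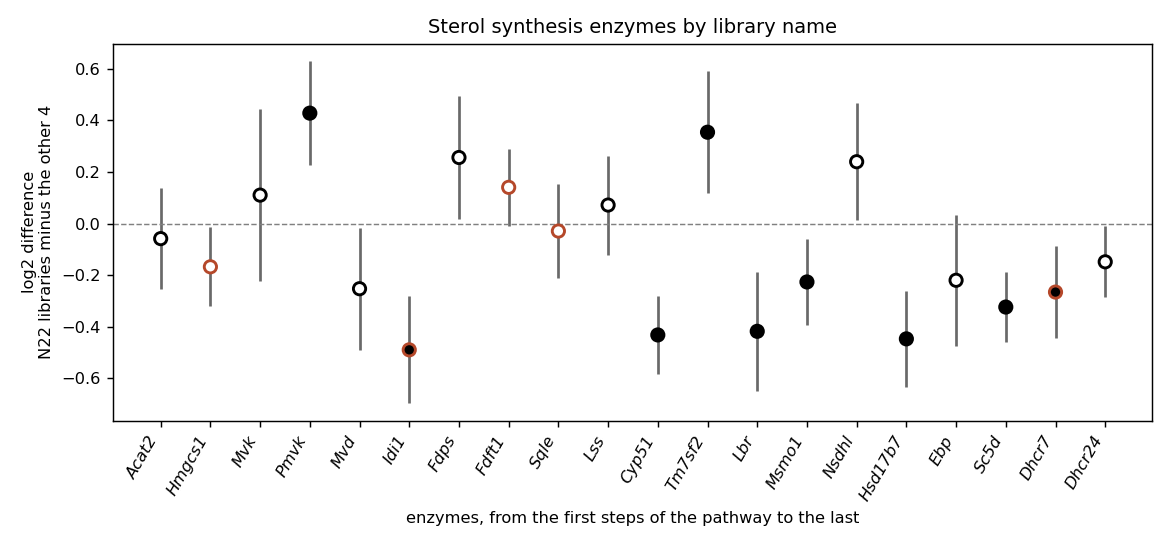
Log2 difference, N22 libraries minus the other 4, with its 95% interval from limma for 20 of the 21 sterol synthesis enzymes, set roughly in pathway order and with members outlined in red. Filled points have an adjusted p under 0.05, with 7 of the 8 enzymes called lower drawn below 0 and the 2 called higher above it.

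Of 19 genes for SREBP control and sterol uptake, which include Srebf2 and Insig1, 3 were called lower and 0 higher in the N22 libraries (median −0.05). Over all genes limma called 16.7% lower and 11.3% higher in that contrast, so 3 of 19 lower is near the share of all genes. Insig1 was among the 3, as was Stard4, which encodes a sterol transfer protein (−0.40, adjusted p = 0.0105). The escort gene Scap (0.04) and the paralogues Insig2 (0.01) and Srebf1 (−0.05) did not pass. Between genotypes 0 of 19 were called.

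Genes for sterol efflux, esterification and turnover had 6 of 16 called lower and 1 higher in the N22 libraries (median −0.21), where 16.7% of all genes were called lower and 11.3% higher. Lower were the sterol transporters Abcg1 (−0.46, adjusted p = 0.000945) and Abca1 (−0.35, adjusted p = 0.00409) and the acyltransferase Lcat (−0.62, adjusted p = 0.00141). Cyp46a1, the neuronal hydroxylase that makes 24-hydroxycholesterol for export, was higher (0.42, adjusted p = 0.000575). It had 3527 and 3322 normalised counts in the N22 libraries of Top2b-low and wild-type mice, against 2426 to 2679 in the others. Between genotypes 0 of 16 passed. Mylip, which encodes a sterol-induced ubiquitin ligase, was the 1 gene of the 16 with an unadjusted p under 0.05 in limma. It did not overlap between genotypes, with 322, 306 and 297 normalised counts in Top2b-low and 268, 262 and 248 in wild-type replicates 1 to 3 (log2 difference 0.25, unadjusted p = 0.0383, limma adjusted p = 0.99997). Of all genes, 5.74% did not overlap either, with 2.7% higher and 3.04% lower in Top2b-low brains, so 1 such gene among 16 is near that share.

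Fatty acid synthesis genes, targets mainly of SREBP1, had 8 of 14 called lower and 0 higher in the N22 libraries (median −0.23). The counts of this list and of the isoprenoid branch are to be read against 16.7% of all genes called lower and 11.3% higher. Elovl6 (−0.50, adjusted p = 0.000398) and Elovl5 (−0.47, adjusted p = 0.000632) encode elongases, and Scd1 (−0.39, adjusted p = 0.00114) and Scd2 (−0.45, adjusted p = 0.00103) encode desaturases. Of 8 genes of the isoprenoid branch, 2 were called lower in the N22 libraries, the geranylgeranyl diphosphate synthase Ggps1 (−0.39, adjusted p = 0.00348) and the protein prenylation subunit gene Pggt1b (−0.28, adjusted p = 0.0320), and 0 higher (median −0.06). Between genotypes 0 of these 22 genes were called, with 13 of the 14 fatty acid synthesis genes below 0 (median −0.05), against 8806 of all 17391 genes. Summed levels of the 14 overlapped, at 58679 to 79143 normalised counts in Top2b-low and 65893 to 82171 in wild-type libraries. The N22 library was lowest in each genotype. Like the members, these genes act in one pathway and are not 14 independent observations.

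Astrocyte markers moved most with the N22 name among the cell types that make cholesterol, where 28.0% of all genes were called, 16.7% lower and 11.3% higher. Of 14 astrocyte markers 9 were lower and 0 higher in the N22 libraries (median −0.34), with summed levels of 105974 to 109457 normalised counts in the N22 libraries and 135219 to 136269 in the others. Of 14 oligodendrocyte markers 5 were lower and 0 higher (median −0.14), with sums of 122611 to 129612 in the N22 libraries and 132825 to 146722 in the others. Neuron markers had 2 of 12 lower and 1 higher (median 0.03), with overlapping sums of 166848 to 178514 in the N22 libraries and 167773 to 174818 in the others. Of 10 endothelial and mural markers 4 were lower and 1 higher, of 10 oligodendrocyte precursor markers 1 was lower, and of 10 microglia markers 1 was higher. No marker on these lists was at 0 in any library. Abundant markers of their cells were present throughout, such as Slc1a2 at 37690 to 48492 and Mbp at 46341 to 53810 normalised counts. The part of these cell types in the differences of the sterol genes was not tested. Between genotypes 0 markers on any of these lists passed limma's test. Of 14 oligodendrocyte markers 13 were below 0 (median −0.10), where 8806 of 17391 genes were. Their sums in replicates 1 to 3 were 136504, 132825 and 122611 in Top2b-low and 146722, 144672 and 129612 in wild-type libraries. The ranges overlapped over all 6 libraries, while the Top2b-low sums were the lower ones both in the N22 pair and among the other 4. These markers belong to one cell type and are not 14 independent observations.

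The genes whose profile over the 6 libraries was most like the mean profile of the members were Sspn, Zswim9, Phgdh, Phldb1, Emc1 and Kif1c. Likeness was the root mean square difference of centred log2 levels, and it was 0.0222 for Sspn to 0.0285 for Kif1c, where the median over 12109 genes with a mean of at least 100 was 0.155. A flat profile stood at 0.105 from that of the members, and 2115 genes were nearer than that. The members themselves lay 0.0389 (Hmgcs1) to 0.165 (Idi1) from their own mean. The 6 outside genes were nearer, but they were picked as the nearest of 12109, so that comparison says nothing about the members. The mean profile, in log2 units from the 6-library average, was 0.15, 0.03 and −0.19 in Top2b-low replicates 1 to 3 and 0.06, −0.02 and −0.04 in wild-type replicates 1 to 3. Top2b-low replicate 1 thus had the highest and Top2b-low replicate 3 the lowest summed level of the 7 genes, 19991 and 16255 normalised counts, with wild-type libraries between 17423 and 18528.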

How the data were processed

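A single table from the authors holds normalised counts, the signal of each gene in 6 libraries. Per the submitters' processing notes, RSEM and mm39 were used, but no source used here names versions, aligner, annotation or strand setting. Divided by the smallest value above 0 of its library, 100.0% of values came out whole (tolerance 1e-06), so reads were recovered. Their size factors (0.798 to 1.69) equalled median-ratio factors recomputed with DESeq2. The recovered values may be rounded RSEM estimates. Intervals and errors from counts cover counting error only.

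Symbols from GENCODE vM21 matched 51498 identifiers and at least 99.4% of reads. Genes with a mean of at least 10 were compared on log2(normalised count + 1), pseudocount 1, with limma 3.58.1 in R 4.3.3 (empirical Bayes with trend, two-sided, Benjamini-Hochberg over 17391 genes, threshold 0.05). On this scale, differences of weakly expressed genes are understated. Genotype was fitted alone, with the N22 name, and with their interaction, and the N22 name with genotype. Alternatives included edgeR 4.0.16 and DESeq2 1.42.0 on the recovered reads.

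Groups came from titles and genotype labels. The series text counts mice per genotype, so libraries were taken as separate animals. Replicate numbers recur across genotypes. Deviations from the group means correlated over genes by 0.33, 0.35 and 0.68 between libraries of the same number, above the 0.1 set for pairing, though across numbers Top2b-low replicate 2 also correlated with wild-type replicate 1 (0.37) and Top2b-low replicate 1 with wild-type replicate 2 (0.24). No label states the pairing, and among the 4 libraries not named N22 these values do not set same-numbered pairs apart. Chi-square per degree of freedom between replicates was at least 4.00.

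Members and lists were chosen with earlier results of these data known. Genes named were the members, Top2b, up to 4 genes per list by smallest p, up to 4 markers by level, and the 6 nearest genes. Scap, Insig2, Srebf1, Idi2, Ctsb and Gabra6 were chosen outside that rule. Some genes on the lists enter the counts and are not reported or drawn singly here.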

Additional observations from a re-analysis of the deposited data

How the results depend on the processing

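Over the alternatives run, limma, edgeR and DESeq2 called 0 members between genotypes, the lowest adjusted p being 0.763 (Srebf2, array weights). With the replicate block the lowest was 0.883 and limma called 0 genes in all (1169 at an unadjusted p under 0.05), as without it, and the block changed no other call. Over all genes the count of calls was 0, except 15 from DESeq2 with the N22 term, a setting chosen after seeing the data, and 1 without Top2b-low replicate 1 (range 0 to 1 over single omissions). Small genotype differences changed sign. In the 4 libraries not named N22, Sqle was 0.077 and Idi1 0.028. In the N22 pair Hmgcs1 was −0.040, Insig1 −0.18, Fdft1 −0.11 and Srebf2 −0.077, and the median of the members moved to −0.11. Array weights gave 0.030 for Sqle and 0.049 for Idi1, edgeR 0.0011 for Idi1 and quantile normalization −0.00058 for Hmgcs1. Leaving out single libraries gave −0.061 to 0.097 for Hmgcs1, −0.081 to 0.034 for Sqle, −0.096 to 0.22 for Insig1, −0.20 to 0.17 for Idi1, −0.039 to 0.092 for Fdft1 and −0.17 to 0.037 for Dhcr7. The cause of these sign changes was not tested.

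In N22 minus other libraries, Idi1, Insig1, Dhcr7, Hmgcs1 and Fdft1 kept their direction in all 17 alternatives. Idi1 kept its call in 15, Insig1 in 12 and Dhcr7 in 8. Without limma's trend 2181 genes and 3 sterol synthesis enzymes were called, against 4864 and 10, and 0 members. Single omissions gave 1702 to 4574 genes and 2 to 10 enzymes, with the lowest counts without either replicate 3, which leaves 1 N22 library assumed to vary like the others. Without Top2b-low replicate 3 the counts were 1702 and 2, and without wild-type replicate 3 they were 1954 and 3. Quantile normalization turned Sqle to 0.032 and Srebf2 to 0.020, and single omissions gave −0.19 to 0.13 for Sqle and −0.13 to 0.056 for Srebf2. With 2 N22 libraries, 1 per genotype, and 3 mice per genotype, the numbers of libraries limit these results, and depth moved with the N22 name.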
